A study of Homo sapiens with 6 samples.

Results

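Transcripts of 7 genes whose products make or recycle DNA precursors, RRM1, RRM2, RRM2B, TYMS, DUT, TK1 and DCK, were followed in irradiated breast cancer cells. They were picked by gene name as the central enzymes of deoxynucleotide supply, with earlier results of these data known. These 7 were found among the 58735 genes of the expression table. MDA-MB-231 cells are an established human line of basal-like breast cancer. The cells carried a non-targeting shRNA (shSCR), and the sample labels name them SCR and give their genotype as WT. There were 3 libraries of cells without irradiation (0 Gy) and 3 of cells taken 24 h after 10 Gy from a 137Cs source. The study's MAFF knockdown (shMAFF) libraries were not used here. The labels do not say whether replicates were separate cultures, so p-values measure the spread between these libraries alone, which may be technical. The cells are 1 line at 1 dose and 1 time, and in bulk RNA fewer cells that express a gene cannot be told apart from less RNA of that gene per cell.

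Cells need all 4 deoxynucleotides in balance to copy and repair DNA. Ribonucleotide reductase makes them from ribonucleotides, with RRM1 as the large subunit and either RRM2 or RRM2B as the small one. RRM2 is the small subunit of cycling cells and is made mainly in S phase, while RRM2B is a damage-inducible form that serves quiescent cells, mitochondrial DNA and repair. Thymidylate synthase (TYMS) makes dTMP from dUMP, the dUTPase DUT breaks down dUTP to dUMP and so keeps uracil out of DNA, and the kinases TK1 and DCK recycle thymidine and deoxycytidine from outside the cell. Several of these genes are textbook targets of E2F factors or of NF-Y, which binds CCAAT.

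The letters of E2F-type and CCAAT motifs before the starts of these genes are shown here because the genes are known for that control and 3 of them fell most in irradiated cells. RefSeq windows (GRCh38.p14) of 250 bases before each start were at hand for 6 of the 7 genes, 11 windows in all, and none is shown for RRM2B. The E2F-type letters searched were TTTCCCGC, TTTCGCGC, TTTGCCGC and TTTGGCGC, and the CCAAT box was searched as CCAAT, each on both strands, and no match of one overlapped a match of the other. Of 35116 windows of this length, 2.79% held an E2F-type match and 32.0% held CCAAT. Capitals mark the matches. Each stretch runs 5′ to 3′ on the strand of its gene:
RRM2, chr2:10122609-10122683, + strand: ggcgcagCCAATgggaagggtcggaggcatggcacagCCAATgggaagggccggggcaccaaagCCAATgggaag
RRM1, chr11:4094640-4094669, + strand: gccgggcatgtccatatCCAATggggccca
TYMS, chr18:657603-657631, + strand: gcgggacggccGCGGGAAAaggcgcgcgg
DUT, chr15:48332151-48332180, + strand: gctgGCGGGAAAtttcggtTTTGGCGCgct
TK1, chr17:78187120-78187134, - strand: cgctgATTGGcccca
TK1, chr17:78187089-78187103, - strand: tcgtgATTGGccagc

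RRM2 held 3 CCAAT boxes in 1 window, beginning 123, 93 and 66 bases before the start, so that they lie 30 and 27 bases apart. Of all windows, 2.93% held 3 or more. The window of its other start held 1 CCAAT box, 249 bases before that start and not shown. DUT held 2 E2F-type matches, 42 and 27 bases before 1 of its 4 starts, a number reached by 0.122% of windows, and its other 3 windows held neither motif. TYMS held 1 E2F-type match 39 bases before its start. TK1 held 2 CCAAT boxes on the opposite strand, 77 and 46 bases before 1 of its 2 starts, and RRM1 held 1 CCAAT box 28 bases before its start. The window of DCK held neither motif. In GENCODE 29 the RRM1 stretch lies outside the exons of its gene, and the others lie wholly or mostly in annotated exons of their gene. The RRM2 stretch has 65 of its 75 bases in coding sequence of a longer form. The shares above are of single windows, while DUT and RRM2 had more than 1 window each, and no share per gene was counted. A match is a description of letters and no measurement of binding.

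**Figure D1:**
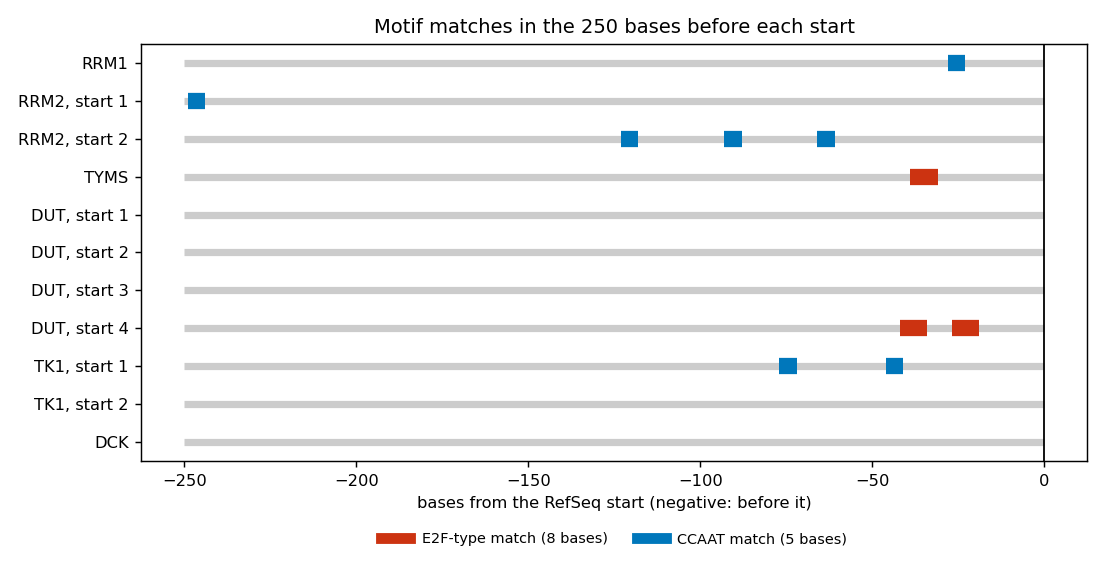
E2F-type (red) and CCAAT (blue) matches in the 250 bases before each of 11 RefSeq starts, with position in bases from the start on the x axis and 1 row per start. RRM2 start 2 holds 3 CCAAT boxes, TK1 start 1 holds 2, and DUT start 4 holds 2 E2F-type matches.

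Levels are given in FPKM, fragments scaled to the summed exon length of the gene and to a depth set for each library. Levels of different genes can thus be set roughly side by side. The libraries held between 15643641 and 28861781 reads recovered from these values, and each of the 7 genes rested on at least 721 reads in every library. The counting error of a single value was at most 3.72%, and it covers counting alone. The 7 genes were all among the 12128 with a mean of at least 1 FPKM that were tested. Without irradiation the highest level was that of TK1, rank 174 of these 12128 genes, followed by RRM1 at rank 558. TYMS, RRM2 and DUT lay close together at ranks 1254, 1420 and 1447, DCK stood at 2170, and RRM2B was lowest at 5658. The ranges of RRM2 and DUT overlapped at 0 Gy, while every other pair of neighbours in this order was apart in all 3 libraries. At 10 Gy RRM2 ranked 2290 and DUT 2179, and RRM2 overlapped with both of its neighbours, DUT and DCK.

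At 24 h after 10 Gy, transcripts of RRM1, RRM2, TYMS, DUT and DCK were lower, RRM2B was higher, and TK1 was not called. The largest difference was in RRM2, whose mean FPKM was 38.4% lower, then DUT at 33.9% and TYMS at 26.5%. RRM2B was 24.5% higher. These calls come from limma on log2(FPKM + 1) with p adjusted by Benjamini-Hochberg over the 12128 genes and called under 0.05. The count of 5 lower among 7 stands beside 23.7% of all genes called lower, and the 1 higher stands beside 11.9% called higher. The 7 were chosen with earlier results of these data known, so these counts are a description and no test. With a change of at least 1.3-fold as well, RRM2, TYMS and DUT were lower and none of the 7 was higher, against 2.95% of all genes lower and 2.82% higher at that size. At that size the calls of TYMS and RRM2B depended on the scaling. TYMS did not reach 1.3-fold with TPM scaling (log2 fold change -0.31), upper quartile scaling (-0.34) or limma-voom on recovered reads (-0.37), and RRM2B reached it with TPM scaling (0.40) and limma-voom (0.39). The 0 Gy and 10 Gy values did not overlap for 6 of the 7 genes, all but TK1, as for 51.9% of all genes tested. The median log2 fold change was -0.25 over the 7 genes and -0.039 over all genes.

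**Figure D2:**
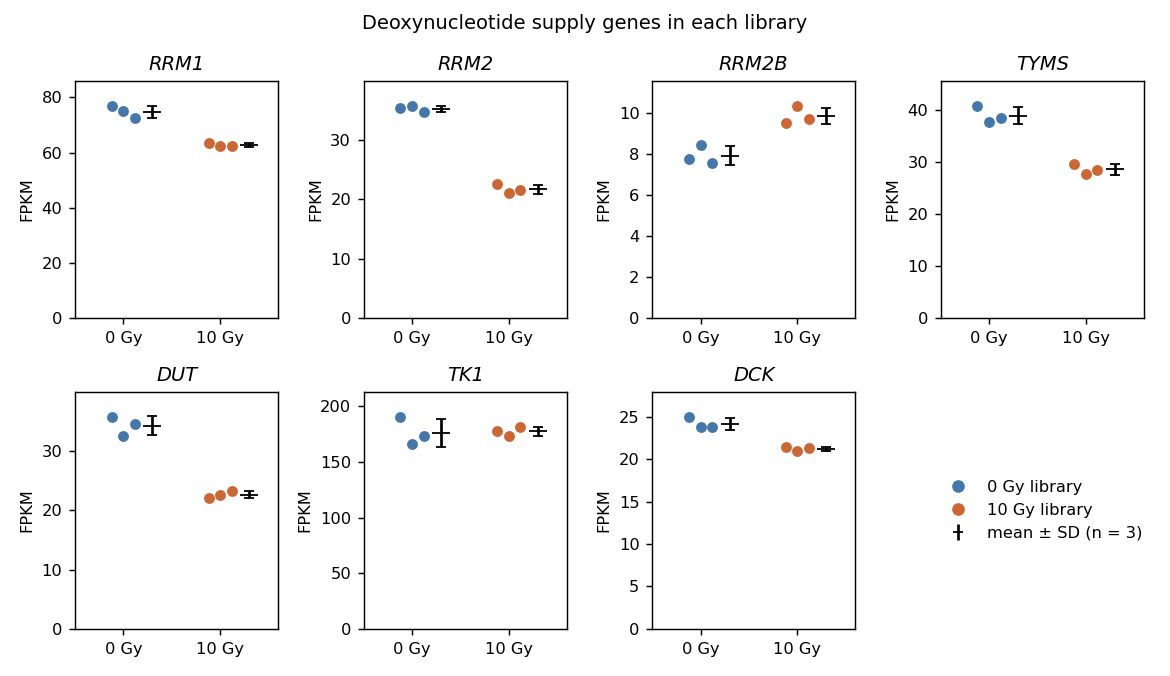
FPKM of the 7 genes (y axes from 0, a scale for each gene) in the 3 libraries at 0 Gy (blue) and the 3 at 10 Gy (orange), with the mean ± SD in black. The doses are apart for each gene but TK1, and RRM2B is the gene that is higher at 10 Gy.

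RRM2 (ENSG00000171848, chr2:10120698-10131419, + strand), the S-phase small subunit of the reductase, had 35.3, 35.6 and 34.6 FPKM in the 0 Gy libraries and 22.5, 21.0 and 21.5 FPKM in the 10 Gy libraries. Every irradiated library lay far under the lowest control library, and the means were 35.1 ± 0.512 and 21.6 ± 0.768 FPKM (SD, n = 3). RRM2 fell by 0.67 on the log2(FPKM + 1) scale (SE 0.035, 95% interval -0.76 to -0.59, limma adjusted p = 0.00023). Only 0.313% of the genes tested had a lower log2 fold change. Its exons share 1077 of 5323 bases with AC007240.1 on the same strand, which stood at 0.297 to 0.482 FPKM, and 3 RRM2 pseudogenes reached at most 0.0998 FPKM.

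RRM1 (ENSG00000167325, chr11:4094707-4138876, + strand), the large subunit that holds the active and regulatory sites, had 76.7, 75.0 and 72.4 FPKM at 0 Gy and 63.5, 62.2 and 62.5 FPKM at 10 Gy. The irradiated libraries were again all below the controls, by a smaller margin. RRM1 fell by 0.25 on the log2(FPKM + 1) scale (SE 0.032, 95% interval -0.32 to -0.17, limma adjusted p = 0.0019), from 74.7 ± 2.16 to 62.8 ± 0.689 FPKM (SD, n = 3). Of all genes tested, 11.7% had a lower log2 fold change. The antisense RRM1-AS1 shares 63 exon bases with RRM1 and stood at 0 to 0.475 FPKM.

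RRM2B (ENSG00000048392, chr8:102204502-102239118, - strand), the damage-inducible small subunit, had 7.75, 8.46 and 7.60 FPKM at 0 Gy and 9.55, 10.3 and 9.73 FPKM at 10 Gy. Here all 3 irradiated libraries lay above the controls. RRM2B rose by a log2 fold change of 0.28 (SE 0.050, 95% interval 0.17 to 0.40, limma adjusted p = 0.0054), from 7.93 ± 0.457 to 9.87 ± 0.411 FPKM (SD, n = 3), and 93.0% of the genes tested had a lower log2 fold change. No gene in the annotation shares exon bases with RRM2B.

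The doses did not overlap in the share of RRM2B in the FPKM of the small subunits. RRM2B made up 18.0%, 19.2% and 18.0% of the summed FPKM of RRM2 and RRM2B in the 0 Gy libraries and 29.8%, 33.0% and 31.2% in the 10 Gy libraries. RRM2 remained the larger part in every library, and the summed level went from 43.1 ± 0.929 to 31.5 ± 0.443 FPKM (SD, n = 3). These are shares of FPKM over all annotated exon bases, 5323 for RRM2 and 5548 for RRM2B, and not of the transcripts made. How reads in the 1077 bases that RRM2 shares with AC007240.1 were counted is not known. The ratio of RRM2B to RRM2 was 0.220, 0.238 and 0.220 at 0 Gy and 0.425, 0.493 and 0.453 at 10 Gy, which is 2.02-fold higher on the mean of the log2 ratios. The ratio of RRM1 to the summed small subunits was 1.73 ± 0.042 at 0 Gy and 1.99 ± 0.0097 at 10 Gy (SD, n = 3). A ratio within a library does not depend on how the library was scaled. For each of 4 ratios tested, the doses did not overlap and the two-sided exact permutation test gave p = 0.1, the smallest that 3 against 3 libraries allow, with 0.1 after adjustment over the 4. For RRM2B to RRM2 this outcome was fixed by the values of the 2 genes, which lay apart in opposite directions, so the test adds nothing to them. How often the ratios of other gene pairs lie apart was not counted.

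TYMS (ENSG00000176890, chr18:657604-673578, + strand), the thymidylate synthase and target of 5-fluorouracil, had 40.7, 37.6 and 38.4 FPKM at 0 Gy and 29.7, 27.6 and 28.4 FPKM at 10 Gy. The groups were well apart. TYMS fell by 0.43 on the log2(FPKM + 1) scale (SE 0.041, 95% interval -0.53 to -0.33, limma adjusted p = 0.00075), and 1.95% of genes had a lower log2 fold change. Its exons share 967 of 2470 bases with the antisense gene ENOSF1, at 2.34 to 2.69 FPKM, and 183 with the antisense TYMSOS, at 2.25 to 3.22 FPKM. Whether the libraries kept strand is not stated, so reads in the shared bases cannot be told apart, and both antisense genes stood far below TYMS.

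DUT (ENSG00000128951, chr15:48331011-48343373, + strand), the dUTPase, had 35.7, 32.6 and 34.5 FPKM at 0 Gy and 22.1, 22.6 and 23.2 FPKM at 10 Gy. Its highest irradiated value lay far below its lowest control value. DUT fell by 0.58 on the log2(FPKM + 1) scale (SE 0.041, 95% interval -0.67 to -0.48, limma adjusted p = 0.00044), and 0.610% of genes had a lower log2 fold change. Nuclear and mitochondrial forms of DUT are made from different starts, and gene totals do not separate them. The antisense AC023355.1 shares 533 exon bases with DUT and stood at 0.0686 to 0.209 FPKM, and the highest of 8 DUT pseudogenes reached 0.897 FPKM. The ratio of TYMS to DUT was 1.13 ± 0.021 at 0 Gy and 1.26 ± 0.069 at 10 Gy (SD, n = 3), one of the 4 ratios above.

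TK1 (ENSG00000167900, chr17:78174075-78187233, - strand), the cytosolic thymidine kinase, had 190.2, 165.7 and 173.0 FPKM at 0 Gy and 178.1, 173.3 and 181.1 FPKM at 10 Gy. All irradiated values lay inside the range of the controls. The means were 176 ± 12.5 and 178 ± 3.97 FPKM (SD, n = 3), with a log2 fold change of 0.012 (SE 0.054, 95% interval -0.11 to 0.14, limma adjusted p = 0.88). With libraries scaled to TPM the same gene was called higher, at a log2 fold change of 0.14 and a limma adjusted p of 0.038. The 95% interval of the deposited values excludes a fall of the size seen in RRM1, whose fitted log2 fold change was -0.25.

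DCK (ENSG00000156136, chr4:70992538-71030914, + strand), the deoxycytidine kinase that also activates gemcitabine and cytarabine, had 24.9, 23.7 and 23.8 FPKM at 0 Gy and 21.4, 20.9 and 21.3 FPKM at 10 Gy. The doses were apart by a narrow margin. DCK fell by 0.18 on the log2(FPKM + 1) scale (SE 0.032, 95% interval -0.25 to -0.10, limma adjusted p = 0.0061), and this call was lost with TPM scaling (log2 fold change -0.056, limma adjusted p = 0.18). Its exons share 199 bases, 6.17% of the total, with MOB1B on the same strand, which stood at 7.62 to 8.72 FPKM. The ratio of TK1 to DCK was 7.30 ± 0.322 at 0 Gy and 8.37 ± 0.115 at 10 Gy (SD, n = 3), again apart and at the smallest exact permutation p of 0.1.

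**Figure D3:**
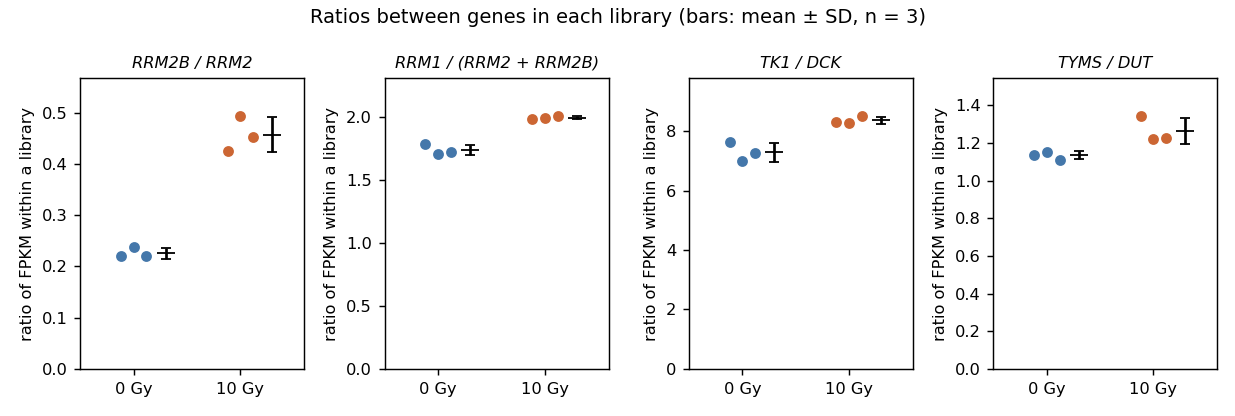
Ratios of FPKM within each library (y axes from 0) for RRM2B to RRM2, RRM1 to RRM2 plus RRM2B, TK1 to DCK and TYMS to DUT, at 0 Gy (blue) and 10 Gy (orange), with the mean ± SD in black. The ratio of RRM2B to RRM2 goes from between 0.220 and 0.238 to between 0.425 and 0.493, the largest step of the 4.

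The scaling of the libraries moved the log2 fold change of each of the 7 genes. FPKM summed to between 269611 and 278380 in the 0 Gy libraries and between 246920 and 254918 in the 10 Gy libraries. The depth behind the deposited values was 0.973 to 0.991 times the recovered reads at 0 Gy and 1.03 to 1.04 times at 10 Gy. The deposited values were therefore not scaled to the recovered reads alone, and the factor differed by dose. The median log2 fold change of all genes was -0.039 as deposited, 0.068 with TPM scaling, 0.037 with upper quartile scaling and 0.00082 with median-of-ratios scaling. Of all genes called, 66.6% were lower as deposited, 25.5% with TPM scaling, 36.1% with upper quartile scaling and 51.3% with median-of-ratios scaling. Relative to the median of all genes, RRM2 stood at -0.64 as deposited and -0.62 with TPM scaling, DUT at -0.54 and -0.52, TYMS at -0.39 and -0.37, RRM1 at -0.21 and -0.19, and RRM2B at 0.32 and 0.33. Relative to that median TK1 stood at 0.051 and 0.072 and DCK at -0.14 and -0.12. The direction and the call of RRM1, RRM2, RRM2B, TYMS and DUT held under these 4 scalings, with calls by adjusted p alone. By adjusted p, the calls of TK1 and DCK depended on the scaling, and with the 1.3-fold threshold those of TYMS and RRM2B did.

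**Figure D4:**
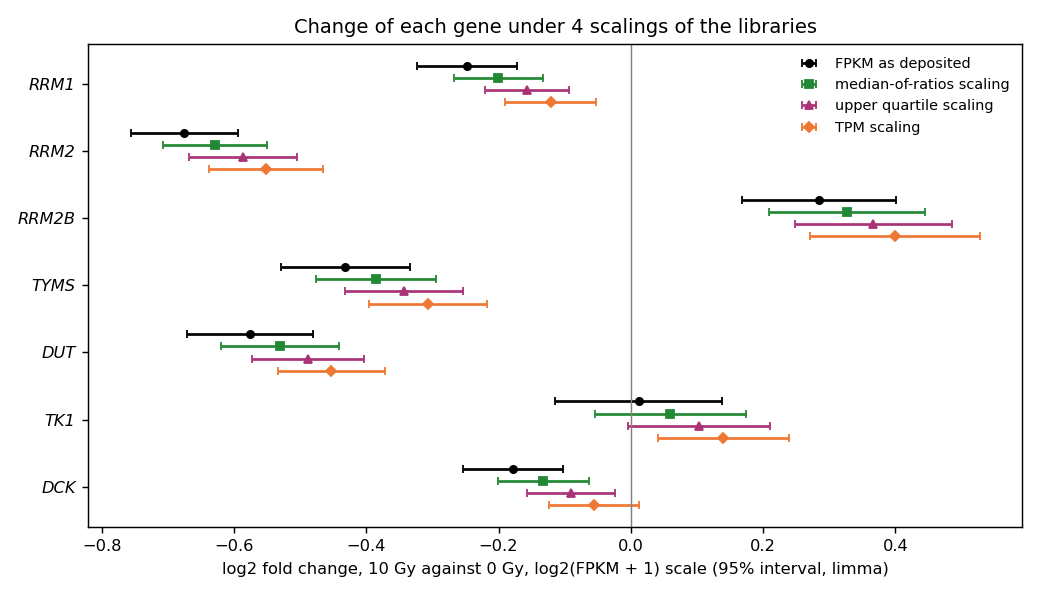
Log2 fold change of each gene at 10 Gy against 0 Gy on the log2(FPKM + 1) scale (x axis), with 95% intervals from limma, for the values as deposited and under 3 other scalings. Scaling shifts all 7 genes to the right by similar amounts, the interval of DCK comes to include 0 with TPM scaling, and that of TK1, which includes 0 as deposited, lies above 0 with TPM scaling.

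Around these enzymes, 53 other genes of nucleotide metabolism fell into 5 lists, of which 49 genes were tested. The gene lists here and below were also chosen with earlier results of these data known. Of these, 29 were lower, 1 was higher and 19 did not pass, with a median log2 fold change of -0.19. Of all genes tested, 23.7% were lower and 11.9% higher, with a median of -0.039. With TPM scaling 15 were lower and 3 higher, so the count depends on the scaling. Among all 12128 genes, 1071 were then lower and 3127 higher. The median of the 49 genes with TPM scaling was -0.064, beside 0.068 for all genes. In the salvage and turnover list 9 of 19 tested genes were lower and 1 higher. With TPM scaling 4 were lower and 2 higher, and with upper quartile scaling 4 were lower and 1 higher. Among all genes, upper quartile scaling gave 1444 lower and 2556 higher. NT5C, a nucleotidase that removes phosphate from deoxynucleotides, was lowest, at 16.9 FPKM without and 10.2 FPKM with irradiation (log2 fold change -0.68). NME1, a nucleoside diphosphate kinase, went from 30.9 to 23.9 FPKM (-0.36), and its reads may be split with its close copy NME2. DCTPP1, which clears modified dCTP, went from 29.7 to 23.6 FPKM (-0.31), a call that was lost with TPM or upper quartile scaling, with no filter on low genes, and without 10 Gy replicate 1 (-0.31) or 10 Gy replicate 2 (-0.30). CDA, the cytidine deaminase, rose slightly, from 18.0 to 19.3 FPKM (0.094), and its call was lost without any 1 of 5 libraries, all but 0 Gy replicate 1 (0.084 to 0.10), and with a replicate block, eBayes without a trend or limma-voom. CMPK2 and NT5M were below the level needed for testing.

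Reductase needs electrons from thioredoxin or glutaredoxin to turn over. Of 6 genes in the electron donor list 4 were lower and none higher, with a median log2 fold change of -0.26. Of all genes tested, 23.7% were lower and 11.9% higher. With TPM scaling 3 of the list were lower and 1 higher, and with upper quartile scaling 3 were lower. Among all 12128 genes, TPM scaling gave 1071 lower and 3127 higher, and upper quartile scaling 1444 lower and 2556 higher. TXNRD1, the cytosolic thioredoxin reductase, went from 110 to 74.4 FPKM (-0.56), thioredoxin itself (TXN) from 550 to 407 FPKM (-0.43) and glutathione reductase (GSR) from 24.2 to 19.1 FPKM (-0.32). Glutaredoxin (GLRX), named here after its values were seen, stood at 8.58 and 8.76 FPKM and did not pass. TXN2 and TXNRD2, also named after their values were seen, are the mitochondrial thioredoxin and its reductase. TXN2 was the other gene called lower, from 28.9 to 25.2 FPKM (-0.19), and TXNRD2 did not pass. TYMS depends on the folate cycle for its methyl donor. In that list 6 of 8 tested genes were lower and none higher, with a median of -0.31, and with TPM scaling 5 were lower and none higher. SHMT2, the mitochondrial serine hydroxymethyltransferase, went from 93.6 to 66.2 FPKM (-0.49), MTHFD1L from 15.4 to 10.7 FPKM (-0.49) and FPGS, which adds glutamates to folates, from 28.3 to 21.9 FPKM (-0.36).

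In de novo pyrimidine synthesis 2 of 5 genes were lower, beside 23.7% of all genes tested. These were the CTP synthase CTPS1, from 9.60 to 7.73 FPKM (-0.28), and CAD, the enzyme of the first steps, from 23.5 to 20.6 FPKM (-0.18), whose call was lost with each of the 3 other scalings, with no filter on low genes and without 10 Gy replicate 2 (-0.16). In de novo purine synthesis 8 of 11 tested genes were lower and none higher, with a median log2 fold change of -0.19. With TPM scaling 2 were lower, where 1071 of the 12128 genes were lower. The median of the list was then -0.063, beside 0.068 for all genes. PRPS2, which makes the ribose donor, went from 16.8 to 13.3 FPKM (-0.32), the adenylosuccinate synthase ADSS from 32.0 to 26.9 FPKM (-0.24) and PFAS from 17.7 to 15.1 FPKM (-0.21), the last not called with TPM or upper quartile scaling, with no filter on low genes or without 10 Gy replicate 1 (-0.20).

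**Figure D5:**
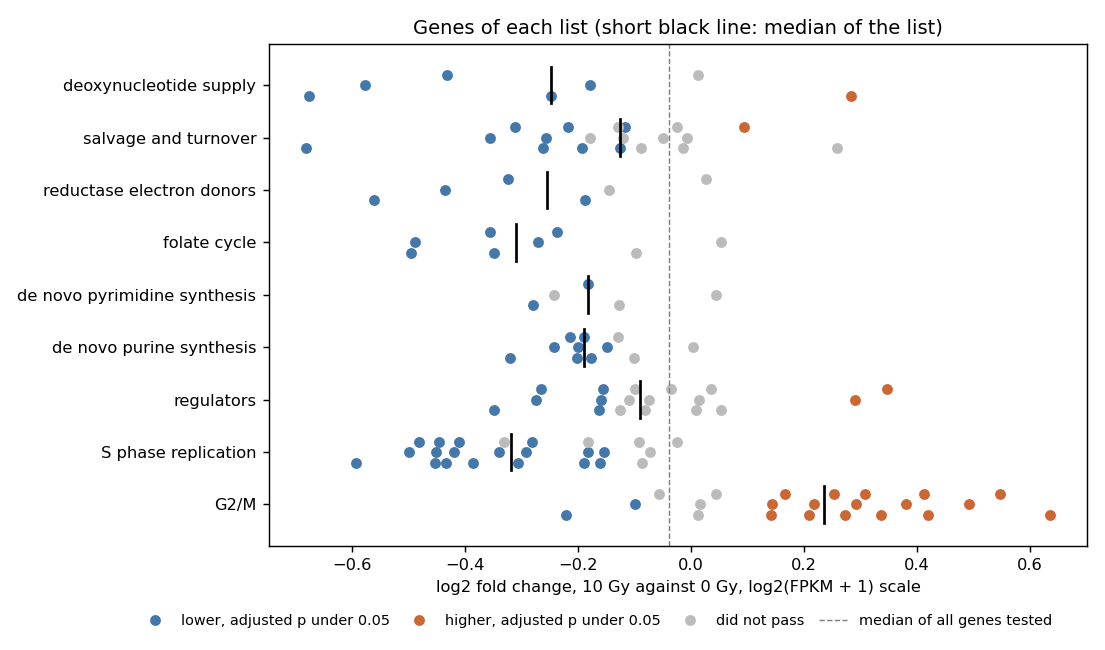
Log2 fold change at 10 Gy against 0 Gy on the log2(FPKM + 1) scale (x axis) of every tested gene in each list (rows), as deposited, with genes called lower in blue, higher in orange and not called in grey. Short black lines are list medians and the dashed line is the median of all genes, -0.039. Of the G2/M genes 16 of 22 are higher, and of the S phase genes 18 of 24 are lower. Of all genes tested, 11.9% are higher and 23.7% lower.

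Genes of the cell cycle also differed between doses. In a list of 24 S phase replication genes 18 were lower and none was higher, beside 23.7% of all genes lower and 11.9% higher. Their log2 fold changes lay between -0.59 and -0.025 with a median of -0.32. With TPM scaling 14 were lower and none higher, where 1071 of the 12128 genes were lower and 3127 higher. GINS2, a part of the replicative helicase, went from 12.0 to 7.60 FPKM (-0.59), cyclin E2 (CCNE2) from 6.20 to 4.10 FPKM (-0.50), and the sliding clamp PCNA from 170 to 121 FPKM (-0.48). In a list of 22 G2/M genes 16 were higher and 2 lower, with a median of 0.24. The mitotic kinesin KIF20A went from 48.8 to 76.4 FPKM (0.64), cyclin B2 (CCNB2) from 32.1 to 47.3 FPKM (0.55) and AURKA from 93.5 to 132 FPKM (0.49). AURKB was lower (60.5 to 51.8 FPKM, -0.22), and KIF23 was called lower (20.7 to 19.2 FPKM, -0.099) as deposited but stood at 0.023 with TPM scaling, and its call was lost without any 1 of the 6 libraries (-0.11 to -0.079). Whether the share of cells in S phase or in G2/M had a part in the values of the 7 enzymes was not tested.

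Of 18 known regulators of S-phase genes 6 were lower and 2 higher, with a median log2 fold change of -0.090, beside 23.7% of all genes lower and 11.9% higher. With TPM scaling 3 were lower and 4 higher, where 1071 of the 12128 genes were lower and 3127 higher. The repressor E2F8 went from 11.8 to 9.05 FPKM (-0.35), the activator E2F1 from 75.2 to 61.9 FPKM (-0.27) and its partner TFDP1 from 75.8 to 63.0 FPKM (-0.26). TFDP2, from 3.80 to 5.10 FPKM (0.35), and the pocket protein RBL2, from 3.49 to 4.50 FPKM (0.29), were higher.

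For each enzyme that changed by at least 1.3-fold, the protein-coding genes with the nearest profile over the 6 libraries were found by the root mean square difference of log2(FPKM + 1) values, each centred on its own mean. Among 10491 genes, those nearest to RRM2 were F3 (difference 0.030), UNG (0.045) and H1F0 (0.050). Their log2 fold changes were -0.63, -0.61 and -0.71, beside -0.67 for RRM2. The 2 nearest to TYMS were PLK2 (0.015) and POLA1 (0.018). Nearest to DUT were SFN (0.024), EIF4EBP1 (0.032) and WDR34 (0.032). The dose difference makes up much of such a profile, so the nearest genes are largely those with a change of similar size. Whether they share control with the enzymes was not tested.

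The libraries were checked against markers of the line. All 6 genes that mark MDA-MB-231 were above 1 FPKM and summed to between 985 and 1000.1 FPKM at 0 Gy and between 808 and 832 FPKM at 10 Gy. Of 6 genes low or absent in this line, GATA3 and EPCAM had a mean of at least 1 FPKM, the sum was at most 5.05 FPKM and PGR was at 0 in every library. Of 9 markers of immune, endothelial and stromal cells, COL1A1, PECAM1 and PDGFRB had a mean of at least 1 FPKM and CD3E was at 0 in every library. Their sum was 5.47 to 5.61 FPKM at 0 Gy and 7.52 to 7.70 FPKM at 10 Gy, and its part in the values of the enzymes was not tested. Log2(FPKM + 1) values of libraries correlated at 0.992 to 0.994 within a dose and at 0.984 to 0.989 between doses, as a description across genes, and no library stood apart from its dose.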

How the data were processed

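RNA of MDA-MB-231 cells was sequenced from polyA libraries by the authors' provider. The authors deposited FPKM values for 58735 genes in 6 libraries, 3 at 0 Gy and 3 at 24 h after 10 Gy. The submitters' processing notes name HISAT2 and GRCh38, with no version or role. Gene coordinates are those of GENCODE 29 for 58724 genes. The counting program, its handling of strand and of reads with several matches, and the library scaling are not given in the sources used here. Multiplying FPKM by gene length and by the depth implied for each library gave whole reads (within 0.05) for 100% of values. The implied depth was 0.973 to 0.991 times the recovered reads at 0 Gy and 1.03 to 1.04 times at 10 Gy. Deposited FPKM were therefore not scaled to the recovered reads alone. These reads served for depth, counting error and 1 alternative.

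Samples were grouped by the treatment in their labels. Log2(FPKM + 1) values of genes averaging 1 FPKM or more were compared with limma 3.58.1 (eBayes with an intensity trend, two-sided) in R 4.3.3, and p was adjusted by Benjamini-Hochberg over 12128 genes. Genes were called at an adjusted p under 0.05, and the study's size of 1.3-fold was added as a second threshold. Fold changes on this scale understate those of low genes. Ratios of FPKM within a library were compared by exact permutation tests. The limma step was run on simulated data with planted changes and independent noise. Those data held no scaling difference between the doses, so they do not bear on that difference. The 7 genes, the gene lists and the ratios were chosen with earlier results of these data known. The lists were written from general knowledge, and named genes are the 7, up to 3 called genes per list and direction with the largest change, genes that overlap the 7 and the 3 nearest profiles of each of the 7 changed by 1.3-fold. Motifs were searched in RefSeq promoter windows (GRCh38.p14). Other settings tried were a pseudocount of 0.1, no filter or a mean of at least 5 FPKM, TPM, upper quartile and median-of-ratios scaling, a replicate block, eBayes without a trend, protein-coding genes alone, limma-voom on recovered reads and each library left out. Python 3.11.15 with matplotlib 3.10.9 made the figures. A few genes and 1 gene list of the same fit are not reported here.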

Additional observations from a re-analysis of the deposited data

How the results depend on the processing

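RRM1, RRM2, RRM2B, TYMS and DUT kept their direction and their call by adjusted p under all 16 alternatives run, while TYMS and RRM2B crossed the 1.3-fold size under some scalings. The filters, the gene set, the trend and the replicate block leave a log2 fold change as it is. Another pseudocount or 1 library left out cannot reverse a gene whose doses do not overlap. For such genes direction was thus tested by the other scalings and limma-voom alone. RRM2 ranged from -0.70 to -0.55 on the log2 scale, DUT from -0.61 to -0.45, TYMS from -0.46 to -0.31, RRM1 from -0.27 to -0.12 and RRM2B from 0.25 to 0.40. DCK kept its direction in 16 and its call in 15, all but TPM scaling (-0.056). TK1 ranged from -0.031 to 0.14, kept its sign in 13 of 16 and was called with TPM scaling alone (0.14). The 4 ratios kept their direction with a pseudocount of 1 and without each library. Leaving out 1 library could not have reversed them, since the doses did not overlap in any of the 4. The number of genes at 1.3-fold was 700 as reported, 1059 with a pseudocount of 0.1 and 408 with a mean of at least 5 FPKM. With limma-voom on recovered reads it was 1192. By adjusted p alone, limma-voom called 1935 genes lower and 2795 higher, so that 40.9% of its calls were in the lower direction. The other nucleotide genes called numbered 30 as reported and 18 with TPM scaling, beside 4317 and 4198 of all genes. KIF23 changed sign with TPM scaling (0.023). The genes called numbered 4317 as reported and between 2651 and 3975 with 1 library left out, the lowest being 2651 without 10 Gy replicate 2 and 2711 without 10 Gy replicate 1; fewer samples enter those fits.

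Replicate numbers did not pair the libraries: deviations of same-numbered libraries correlated at -0.040, -0.035 and -0.10 across genes. With a replicate block 6 of the 7 enzymes were still called, 5 lower and 1 higher, the calls of CDA and KIF23 were lost, and 3503 genes were called, 1137 higher and 2366 lower. With 3 libraries a dose, a log2 fold change of TK1 anywhere within its interval of -0.11 to 0.14 could not be told from 0. TFDP2 and RBL2 fell below the filter at 5 FPKM and have no value there. Groups of 3 are too small to test single libraries as outliers.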
